A study of Gallus gallus with 6 samples.

Results

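The transcription factors described here specify mesoderm and the somites, the segmented blocks of tissue beside the neural tube. They are the T-box factors TBXT and TBX6, the homeobox factors MEOX1 and MEOX2, the basic helix-loop-helix factors TCF15 and MYF5, the forkhead factors FOXC1 and FOXC2, and the paired-box factor PAX1. They were found by gene symbol in the array's platform annotation. Of the 9 genes, 8 were found, with 10 probe sets, among 13009 genes measured under a symbol of their own; PAX1 was not analysed here. For a gene with several probe sets, the set with the highest mean over the 6 arrays was taken as its main one.

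The study compared chicken neural crest cultures kept in 100 uM homocysteine for 6 h (3 arrays) with cultures kept in media alone for 6 h (control, 3 arrays). The comparison asks which transcripts differ after exposure to this sulfur amino acid, which the labels describe as teratogenic. Both groups were grown from neural tube explants of stage 9+ embryos and had spent 4 h in culture before the exposure. The labels give no strain and no count of embryos per culture, and do not say whether the arrays of a group came from separate cultures, so a p-value here reflects no more than the spread among these 6 samples, which could be technical. The labels' RNA protocol speaks of embryos or tissues in general, and does not say whether the explanted tube was still present when RNA was taken.

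Mesoderm forms at the primitive streak and tail bud under T-box factors. TBXT, also called Brachyury, is the classic gene of nascent mesoderm and is kept on in the notochord, the rod below the neural tube, while TBX6 acts in the presomitic mesoderm. The somites that bud from it are marked by MEOX1, MEOX2, TCF15 (Paraxis) and the FOXC genes. They then divide into sclerotome, which forms the axial skeleton and expresses PAX1, and into myotome, where MYF5 starts muscle formation. Neural crest cells leave the dorsal neural tube next to these tissues, so that a tube explant may carry adjacent mesoderm with it. The array reads RNA of the whole sample, in which fewer cells of a type and less RNA per cell cannot be told apart.

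A value was called above background where it exceeded the 95th percentile of the 57 reporter probe sets of its own array, which match no chicken transcript. That background lay between 53.2 and 84.9 on the homocysteine arrays and between 53.7 and 65.6 on the control arrays, with homocysteine 1 and 2 (77.2 and 84.9) above all 3 control arrays. All intensities are the deposited linear values. All 14 neural crest markers examined and all 8 neural tube markers measured were above background on all 6 arrays. In each group the replicate 1 array differed from the rest. The 5′ to 3′ signal ratio of ACTB was 0.0590, 0.421 and 0.238 on homocysteine 1 to 3, and 0.0572, 0.410 and 0.287 on control 1 to 3. The ratio was thus lowest for number 1 and highest for number 2 in both groups. The summed intensity of the crest markers was also lowest on the replicate 1 arrays. It was 21796 on homocysteine 1 (34200 and 35256 on homocysteine 2 and 3) and 20969 on control 1 (30951 and 34164 on control 2 and 3). LMO4 alone gave 9824 of it on homocysteine 1 and 9400 on control 1. Not every marker followed the sum: EDNRB was highest on the replicate 1 array of each group, at 1577 and 1540. These 2 markers were named after their values were seen.

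Of the 8 factors, TBXT and MEOX1 were above background on all 6 arrays (25%, where 60.9% of all genes were), and MEOX2 and FOXC2 on 4 and 3 arrays, so that 4 were above it on at least 3 arrays (50%, where 72.9% of all genes were). FOXC1 was above background on 2 arrays and MYF5 on 1. TBX6 and the main probe set of TCF15 were above it on none, as 16.2% of all genes were. With the 99th percentile of the reporters or the highest reporter as background, the number above it on at least 3 arrays was 2, TBXT and MEOX1. None of the 8 factors differed between homocysteine and control at an adjusted p of 0.05 (limma, Benjamini-Hochberg over all 38382 probe sets, of which 0% passed). TCF15, 1 of the 8, had an unadjusted p under 0.05, where 2.26% of the main probe sets of all genes had such a p.

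**Figure D1:**
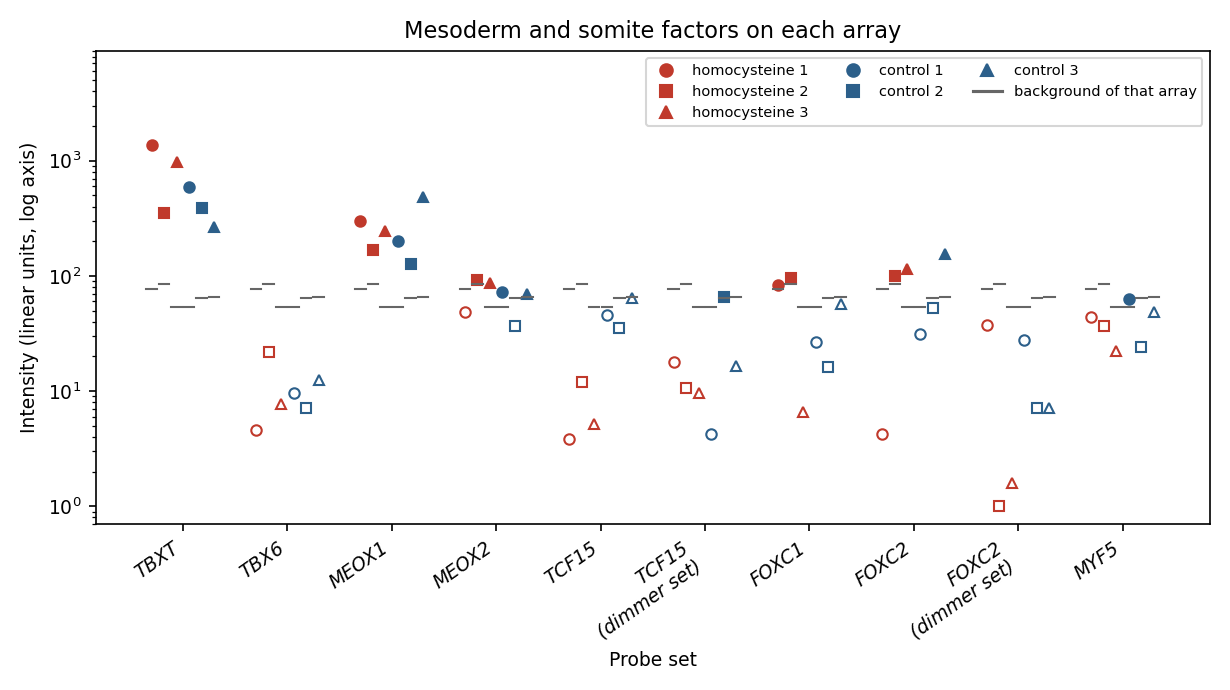
Intensity (log axis) of each of the 10 probe sets on each array, homocysteine arrays in red to the left of control arrays in blue, with symbols for the replicate number and a grey dash for the background of that array; filled symbols are above it. TBXT and MEOX1 lie above the dashes on all 6 arrays, and TBX6 below them on all 6.

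TBXT readings were 4.13 to 18.4 times background on the homocysteine arrays and 4.06 to 11 times on the control arrays. It was read at 1363, 350.9 and 980.6 on homocysteine arrays 1 to 3, against 591.5, 390.8 and 266.1 on control arrays 1 to 3. Homocysteine 1 and 3 were above every control array, while homocysteine 2 was below control 1 and 2, so the groups overlapped. The means were 898.2 ± 511.1 with homocysteine and 416.1 ± 164.2 in control (SD, n = 3 each). Taken by replicate number, the homocysteine reading was 2.30 times the control reading for number 1, 0.898 times for number 2 and 3.69 times for number 3. The log2 change was 0.98, or 1.97-fold, with a 95% interval from -0.51 to 2.46 (limma, adjusted p = 0.9999, unadjusted 0.158). The exact permutation test of 3 arrays against 3, two-sided, gave p = 0.3, where 0.1 is the smallest it can give.

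The size of the TBXT difference rested on single arrays. Without homocysteine 1 the log2 change was 0.57, and without homocysteine 2 it was 1.55, with an unadjusted p of 0.0213 and an adjusted p of 0.917 (limma). Raising the dim values of all probe sets to background left the TBXT readings and log2 change unchanged, and gave TBXT an unadjusted p of 0.0159 and an adjusted p of 0.784 (limma). That p moved only through the variance that limma shares across probe sets, so it adds no evidence about TBXT. The adjusted p ranged from 0.784 to 1 over all alternatives run. Within each group the replicate 1 array, with the low ACTB ratio, had the highest TBXT reading; without both of these arrays the log2 change was 0.86. A log2 change at least as large in size was seen in 4 of 7925 genes above background throughout, TBXT included, and 2 of the 4 were positive. The readings also ranged widely within that set: highest over lowest was 5.12-fold for TBXT, and 114 of the 7925 (1.44%) had a range at least as wide.

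TBX6, the presomitic T-box factor, was not above background on any array. This chicken gene carries the older names CH-TBX6L and Tbx6L in RefSeq. It was read at 4.6, 22.0 and 7.7 on homocysteine arrays 1 to 3, against 9.7, 7.1 and 12.4 on control arrays 1 to 3, and no fold is given between such readings. The highest reading, on homocysteine 2, was 0.259 times the background of that array.

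MEOX1, a homeobox factor of the early somite, was read at 299.6, 167.2 and 247.3 on homocysteine arrays 1 to 3, against 199.3, 126.1 and 481.6 on control arrays 1 to 3. Control 3 was the highest array and control 2 the lowest, so that all homocysteine values lay within the control range. The means were 238.0 ± 66.68 with homocysteine and 269.0 ± 187.7 in control (SD, n = 3 each). By replicate number, homocysteine was 1.5 and 1.33 times control for numbers 1 and 2, and 0.513 times for number 3. The log2 change was 0.011 with a 95% interval from -1.37 to 1.39 (limma, adjusted p = 0.9999), and its sign differed from that of the linear means. It was -0.045 with arrays centred on their medians. Leaving out control 3 gave 0.55 and leaving out control 2 gave -0.42, and the sign turned in 4 of the 6 fits that leave out 1 array.

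MEOX2, a related homeobox factor of somites and limb muscle precursors, lay at the edge of background. It was read at 48.6, 92.1 and 87.6 on homocysteine arrays 1 to 3, the last pair above background, against 73.1, 36.9 and 69.6 on control arrays 1 to 3, of which the first and the last were above it. The groups overlapped, and each had 1 array under background. The log2 change was 0.35 with a 95% interval from -0.70 to 1.41 (limma, adjusted p = 0.9999).

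**Figure D2:**
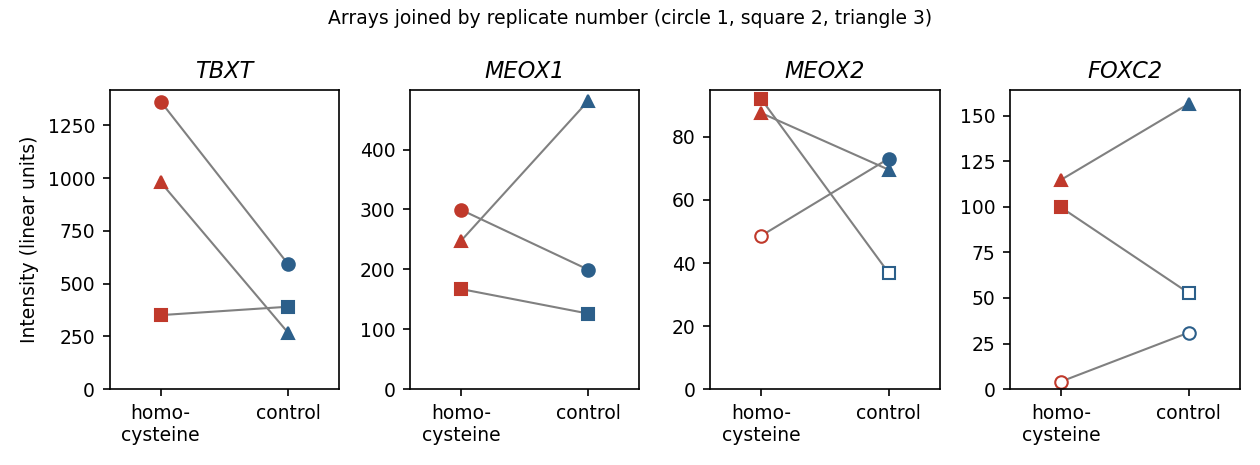
Linear intensity of TBXT, MEOX1, MEOX2 and FOXC2 on homocysteine (red, left) and control (blue, right) arrays, with lines joining arrays of the same replicate number and open symbols for values not above background. TBXT was higher with homocysteine for numbers 1 and 3 and lower for number 2; none of the 4 genes has lines that all run one way.

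TCF15, the somite factor needed for their epithelial form in mice, was read by a pair of probe sets near or below background. The main one gave 3.8, 12 and 5.2 on homocysteine arrays 1 to 3, against 46.1, 35.2 and 64.5 on control arrays 1 to 3. Every homocysteine array was below every control array, but all 6 readings were under the background of their array; control 3 came nearest, at 0.983 times it. It was the only factor of the 8 whose groups did not overlap (12.5%, where the groups did not overlap in 5.53% of the main probe sets of all genes, 2.36% with homocysteine lower). The adjusted p was 0.471 (limma; 0.374 to 0.9999 over the alternatives), and the exact permutation p was 0.1, the smallest it can give. No fold is given, since neither group was measured above background.

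The other TCF15 probe set did not repeat the separation. It gave 17.9, 10.6 and 9.7 on homocysteine arrays 1 to 3, against 4.2, 65.7 and 16.5 on control arrays 1 to 3, with control 1 the lowest array and control 2 the highest and the only one above background. The exact permutation p of this set was 0.8. With values raised to the background of their array, the difference in the main set was 0.21 in log2, of opposite sign, which is the difference between the backgrounds themselves.

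FOXC1, a forkhead factor of paraxial mesoderm that cranial neural crest mesenchyme also expresses, was above background on homocysteine 1 and 2 and on no control array. It was read at 83.3, 96.1 and 6.6 on homocysteine arrays 1 to 3, against 26.8, 16.2 and 57.4 on control arrays 1 to 3. The groups overlapped, because homocysteine 3 had the lowest reading of all. The readings above background were 1.08 and 1.13 times it. The adjusted p was 0.9999 (limma).

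FOXC2, its close relative in the same tissues, was read at 4.2, 99.6 and 114.8 on homocysteine arrays 1 to 3, against 31.0, 52.7 and 156.4 on control arrays 1 to 3. It was above background on homocysteine 2 and 3 and on control 3. The replicate 1 array was the lowest of each group, and neither replicate 1 reading was above background. The fitted log2 change was -0.80 with a 95% interval from -4.28 to 2.67 (limma, adjusted p = 0.9999), and rested on readings below background: it was 0.75 without homocysteine 1 and 0.24 with dim values raised to background. Its dimmer probe set was under background on all 6 arrays, at 1.0 to 37.6 with homocysteine and 7.1 to 27.8 in control. The mean of its probe sets, which takes in these readings, had an unadjusted p of 0.00702 and an adjusted p of 0.904 (limma).

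MYF5, the myogenic factor that acts first in the myotome, was above background on control 1 alone. It was read at 44.3, 36.7 and 22.5 on homocysteine arrays 1 to 3, against 63.0, 24.3 and 49.0 on control arrays 1 to 3. The groups overlapped, and the adjusted p was 0.9999 (limma). The other myogenic factors of the same family, MYOD1, MYOG and MYF6, were not above background on any array; these were named after their values were seen.

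**Figure D3:**
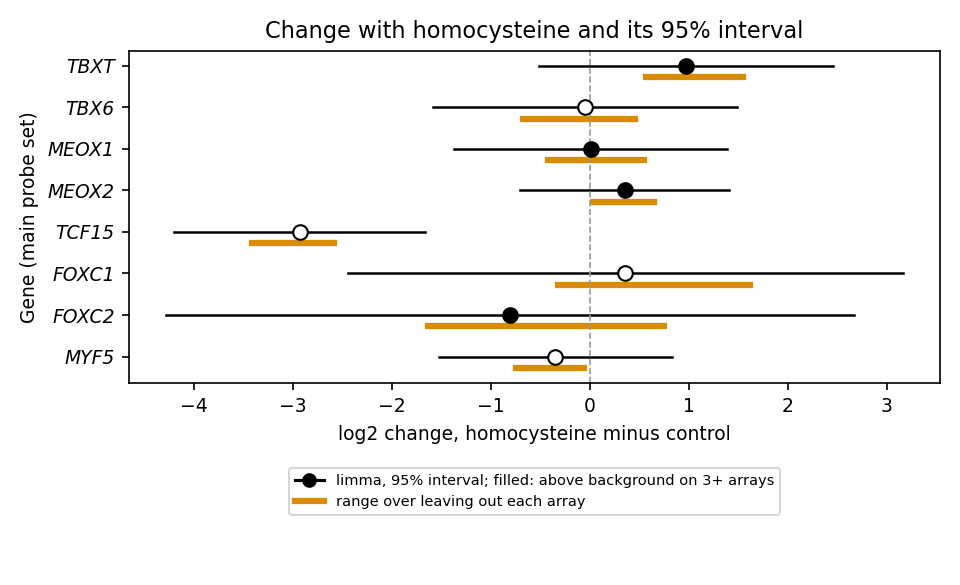
Log2 change of the main probe set of each gene, homocysteine minus control, with its 95% interval (black; filled points are above background on at least 3 arrays) and the range over leaving out each array in turn (orange). The interval holds 0 for every gene except TCF15, which was under background on all 6 arrays and had an adjusted p of 0.471.

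Over the 8 factors, 4 log2 changes lay above 0 and 4 below it, and their median was -0.016, where the median over all 13009 genes was 0.0084 and 51.6% of them were positive. TBX6, TCF15, FOXC1 and MYF5 were above background on at most 2 arrays, so this split rests largely on readings below it. TBXT and MEOX1, above background on all 6 arrays, had a median of 0.494, with MEOX1 at 0.011. The factors did not share an array order. Control 3 had the highest reading for MEOX1, TCF15 and FOXC2, and homocysteine 2 for TBX6, MEOX2 and FOXC1, while TBXT was highest on homocysteine 1 and MYF5 on control 1. The TBX6 and TCF15 readings were all below background, and homocysteine 2 had the highest background. Relative to the background of each array, MEOX2 was highest on homocysteine 3, at 1.65 times it, against 1.09 on homocysteine 2. On control 3 the summed intensity of 15 other somite genes was also highest, at 3769, against 2126 to 2824 on the homocysteine arrays and 2177 and 2514 on control 1 and 2. EYA2 alone gave 875.0 of the control 3 sum, against 224.7 to 481.1 on the other arrays. The crest markers PAX7 (933.7 on control 3), SOX9 (397.4) and TWIST1 (274.0) are also in this sum.

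Other genes of mesoderm and somite formation were taken from 7 lists. Of 101 genes listed, 85 were measured under their symbols, and 35 (41.2%, where 60.9% of all genes were) were above background on all 6 arrays. None passed the threshold in either direction (limma, smallest adjusted p 0.838), 41 log2 changes lay above 0 and 44 below it, and their median was -0.016. An unadjusted p under 0.05, which 2.26% of all genes had, was seen for 5, of which 0 were above background on all 6 arrays. The groups did not overlap in 8 of the 85 (9.41%, against 5.53% of all genes), again 0 of them above background on all 6. That filter leaves out a gene that is dim in 1 group. EPHA4 of the somite boundary list, named after its values were seen, was above background on the 3 control arrays (99.7, 177.4 and 193.7). It was above it on 0 homocysteine arrays (30.4, 74.6 and 37.9), with an adjusted p of 0.948 (limma, unadjusted 0.00946). CHRNA1 of the muscle list, also named after its values were seen, had the smallest adjusted p, 0.838 (limma). It was above background on control 1 and 2 (59.2 and 70.1) and on 0 homocysteine arrays (33.9, 16.9 and 14.3). Without overlap and lower with homocysteine were 2 of 14 genes of the somite boundary list and 1 of 10 muscle genes, where 2.36% of all genes were. In the lateral plate list 3 of 16 were higher without overlap, and the axial progenitor list had 1 gene in each direction. Among these, NRARP, TBX2 and TBX3, named after their values were seen, were above background on no array. Of the 85 genes, 5 are also in the short crest and neural tube marker lists used here (SNAI2, SOX2, SOX9, PAX7 and TWIST1), and their signal need not come from mesoderm. The count covers those lists only. Other genes of the 85, such as WNT3A, SHH, FOXA2 and many of the segmentation clock genes described below, are also expressed in the neural tube.

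Since TBXT is also a notochord gene, genes of the notochord and node were read beside it. Of 9 measured, 7 were above background on all 6 arrays, 6 log2 changes lay above 0 and 3 below it, and their median was 0.013. PTCH1, the receptor and target of Sonic hedgehog, gave 3758 ± 807.1 with homocysteine and 3724 ± 840.6 in control (SD, n = 3 each). The list median of 0.013 was its own log2 change. As a target it reads the response to the signal, and need not come from notochord. SHH itself, the signal of notochord and floor plate, was read at 93.3, 493.0 and 217.3 on homocysteine arrays 1 to 3, against 55.3, 459.2 and 317.4 on control arrays 1 to 3. FOXA2, a forkhead factor of the same midline tissues, gave 234.8 ± 58.04 with homocysteine and 314.8 ± 88.03 in control, and COL2A1, a cartilage and notochord collagen, 714.5 ± 57.01 and 877.3 ± 285.7 (SD, n = 3 each). The array orders differed among these genes. PTCH1 had the order of TBXT within each group, but its highest reading of all was on control 1, at 4686, against 4521 on homocysteine 1. SHH was lowest on the replicate 1 array of each group, where TBXT was highest. These SHH readings were near background, at 1.21 times it on homocysteine 1 and 1.03 times on control 1. Each was under the 99th percentile of the reporters of its array (109 and 96.0). FOXA2 was lowest on homocysteine 3, where TBXT had its next highest reading. The summed intensity of the 9 genes was 4972 to 6169 with homocysteine and 5552 to 6170 in control. PTCH1 alone gave 2913 to 4521 of it with homocysteine and 3127 to 4686 in control, so the sum mostly reads PTCH1.

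**Figure D4:**
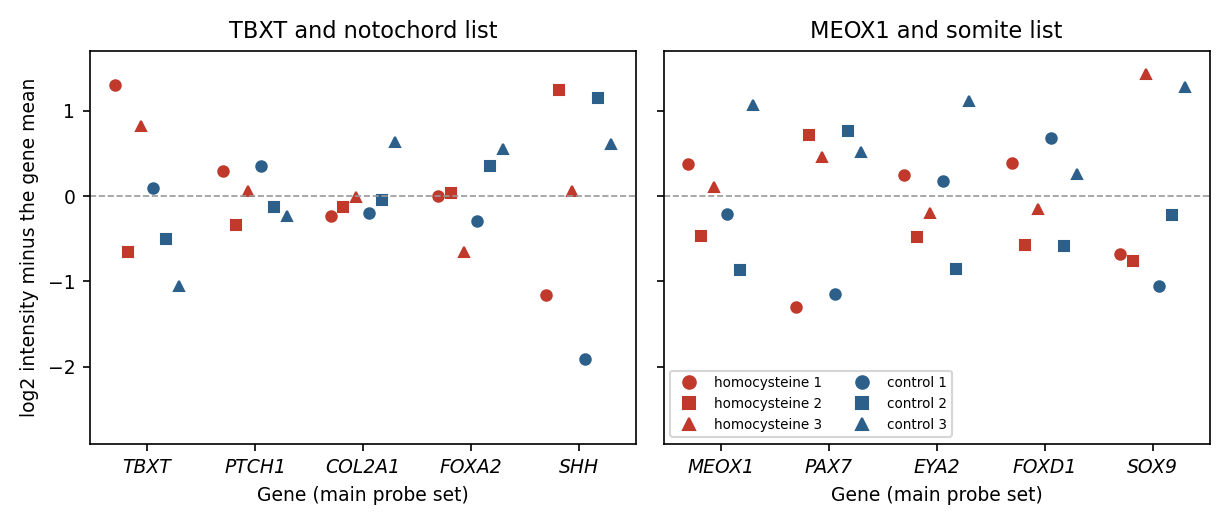
Log2 intensity minus the mean of the gene over the 6 arrays, for TBXT beside 4 genes of the notochord and node list and for MEOX1 beside 4 genes of the somite list. Red is homocysteine, blue is control, and symbols give the replicate number. TBXT is highest on homocysteine 1, where SHH is 1.16 below its mean and at 1.21 times background. MEOX1 and EYA2 are both highest on control 3, while PAX7 is highest on control 2, FOXD1 on control 1 and SOX9 on homocysteine 3.

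Axial progenitors of the tail bud, which give rise to spinal cord and paraxial mesoderm and express TBXT, were covered by 12 measured genes. Of these 6 were above background on all 6 arrays, 7 log2 changes lay above 0 and 5 below it, and their median was 0.052, or 0.086 over the 6. WNT3A, a signal that maintains these cells and is also made by the dorsal neural tube, gave 1524 ± 264.1 with homocysteine and 1367 ± 175.4 in control (SD, n = 3 each). The other bright genes were GREB1, WNT5A and CYP26A1, an enzyme that clears retinoic acid in the tail bud. CYP26A1 was higher with homocysteine for all 3 replicate numbers, at 403.6, 268.9 and 452.3 against 375.4, 205.2 and 386.6 in control, with an adjusted p of 0.9999 (limma). The groups overlapped, and the exact permutation p was 0.5. Of the bright genes named from the other lists, COL2A1, SNAI2 and PAX7 were lower with homocysteine for all 3 numbers. The share of all genes higher or lower for all 3 numbers was not counted.

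The other lists followed the stages after TBXT. Of 9 genes of gastrulation and early mesoderm, 3 were above background on all 6 arrays, 6 log2 changes lay above 0 and 3 below it, and their median was 0.22, or -0.016 over the 3. MSGN1, the presomitic partner of TBX6, was like TBX6 not above background on any array, at 4.2 to 45.7 with homocysteine and 6.4 to 11.9 in control; it was named after its values were seen. Of 14 segmentation clock and boundary genes, many of which also serve Notch and Wnt signalling in the neural tube, 8 were above background on all 6 arrays, 5 log2 changes lay above 0 and 9 below it, and their median was -0.10, or -0.0053 over the 8. Among 15 later somite genes, 6 were above background on all 6 arrays, 5 log2 changes lay above 0 and 10 below it, and their median was -0.13, or -0.16 over the 6. EYA2, a cofactor of muscle progenitors, was read at 481.1, 290.5 and 353.2 on homocysteine arrays 1 to 3, against 456.6, 224.7 and 875.0 on control arrays 1 to 3, and was highest on control 3 as MEOX1 was. PAX7, FOXD1 and SOX9 of the same list were highest on control 2, control 1 and homocysteine 3. Muscle genes, downstream of MYF5, had 3 of 10 above background on all 6 arrays and 4 on none. Of their log2 changes 4 lay above 0 and 6 below it, with a median of -0.12. Genes of lateral plate, heart and intermediate mesoderm had 2 of 16 above background on all 6 arrays and 9 on none. Of their log2 changes 8 lay above 0 and 8 below it, with a median of 0.011. The brightest genes of these 5 lists were SNAI2, FGFR1 and LHX1, then LFNG, DACT2, NOTCH1 and AXIN2, then PAX7, EYA2, FOXD1 and SOX9, then TNNC1, ACTA1 and ACTC1, and PRRX1 and PAX2. Their log2 changes lay between -0.32 for SNAI2 and 0.22 for LHX1, each with a 95% interval that holds 0 and an adjusted p of 0.9999 (limma). LHX1 is named because only 3 genes of its list were above background on all 6 arrays. It was near background, at 1.07 to 2.20 times it.

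**Figure D5:**
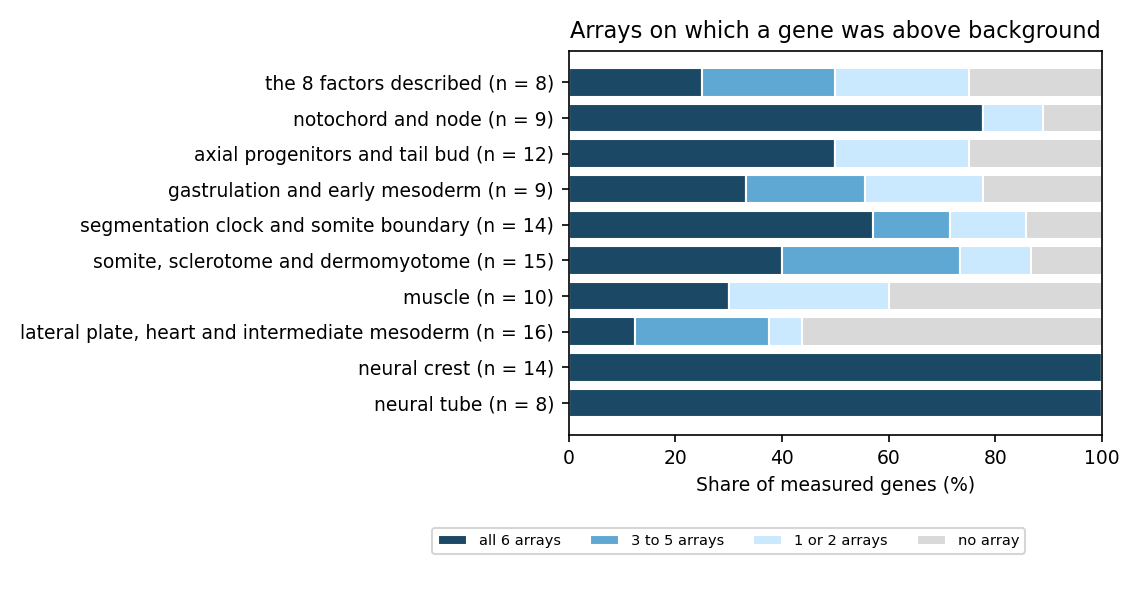
Share of the measured genes of each list (horizontal axis, %) that were above background on all 6 arrays, on 3 to 5, on 1 or 2 and on none, with the number measured beside each name. Of the 8 factors 25% were above background on all 6 arrays, against 2 of 16 genes of lateral plate, heart and intermediate mesoderm and all of the crest and neural tube markers.

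Likeness to TBXT and MEOX1 over the 6 arrays was described by Pearson's r of log2 values with 7568 other genes above background on all 6, after clone, locus and reading-frame names were left out. The 6 points share the replicate numbers and the scaling of each array. With so few points, some of 7568 genes reach a high r without any relation. Whether the r values below exceed that was not tested. The genes most like TBXT were EIF5 (r = 0.989), ABHD2 (r = 0.982) and CLK1 (r = 0.977), and 60 genes (0.793%) had an r above 0.9. Their own ranges were small beside that of TBXT: EIF5, a translation initiation factor, lay between 18782 and 19899 with homocysteine and between 18304 and 19114 in control, and its r became 0.556 with quantile normalization. CLK1, a splicing kinase, lay between 6277 and 7771 with homocysteine and between 5532 and 6553 in control, and had an r of 0.960 with that setting. The genes most like MEOX1 were LRRC4C (r = 0.992), PLA2G6 (r = 0.980) and AZI2 (r = 0.975), each highest on control 3 and lowest on control 2, with 23 genes (0.304%) above 0.9. None of these 6 genes is in the mesoderm lists.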

How the data were processed

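Total RNA of 6 culture samples was read on 1-colour Affymetrix chicken arrays of 38535 probe sets, per the labels and the table. The table holds deposited linear intensity, 1 value per probe set and array. RMA is the tool named in the submitters' processing notes, which state no version; the values lack its log2 form, and their mean after trimming 2% at each end was 500.1 on every array. How probes were background-corrected and summarised is not given in the sources used. Log2 of the deposited intensity was taken with no further scaling. The 96 Affymetrix control and 57 reporter sets were left out, and 38382 probe sets were fitted with limma 3.58.1 in R 4.3.3 (lmFit, eBayes, two-sided, threshold 0.05), homocysteine minus control. The fit was tested on simulated data with independent errors. The planted changes were all larger than that of TBXT, so recovery of a change of its size was not tested. Titles gave each sample's group and replicate number. In the platform annotation 27168 probe sets had 1 symbol, 177 had several and 11037 had none; all 10 probe sets of the factors matched the same symbol by gene number in a RefSeq table (GRCg7b, names only). The factors, lists and alternatives were chosen with earlier results of these data known. Text names the factors, the up to 4 brightest genes of each list above background on all 6 arrays, the 3 most correlated with TBXT and MEOX1, and marked exceptions. The number of arrays limits the precision: the median half-width of the 95% interval was 0.772 in log2 for genes above background on all 6 arrays, and 1.83 for those above it on under 3. Alternatives were the replicate block, scaling, variance model, filters, a pseudocount of 16, gene means and left-out arrays.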

Additional observations from a re-analysis of the deposited data

How the results depend on the processing

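In each alternative run, 0 probe sets, 0 factors and, where run, 0 genes of the wider lists passed the threshold (limma). In the fits over 38382 probe sets, 533 to 2107 had an unadjusted p under 0.05, 1524 as reported. In the fit of probe sets above background on at least 3 arrays, 375 of 19257 had one, and with gene means 493 of 13009 genes. Factors above background on all arrays stayed at 2 in number; those above it on at least 3 arrays were 5 with the 90th percentile of the reporters, 2 with the 99th and 2 with the highest reporter, and 3 to 4 over leaving out each array. The labels give no pairing behind the replicate numbers. Deviations of same-numbered arrays correlated by 0.172, 0.108 and 0.0486 for numbers 1, 2 and 3 over all probe sets, each of the 6 arrays having its highest correlation with its own number. Over probe sets above background on at least 3 arrays they correlated by 0.586, 0.479 and 0.198, with 5 of 6 arrays highest with their own number and at most 0.203 between different numbers. Measured transcripts thus shared a deviation for numbers 1 and 2, while the value for number 3 did not exceed that between different numbers. With the replicate block, 0 probe sets passed, 2023 had an unadjusted p under 0.05, and the unadjusted p was 0.133 for TBXT and 0.00982 for TCF15 (adjusted 0.934 and 0.917). The block changed no call. None of the values whose sign turned had passed the test; log2 values of TBX6, TCF15, FOXC1 and MYF5 here show only how the sign of readings below background moves with the setting, and are no folds; of the factors' 116 values, 22 turned. With dim values raised to background, log2 changes became 0.21 for TBX6, 0.21 for TCF15, 0.24 for FOXC2 and 0.13 for MYF5, where dim arrays take the difference between backgrounds by construction. With log2(value + 16) they were 0.046 for TBX6 and -5.71e-06 for MEOX1, and with arrays centred on their medians -0.045 for MEOX1. Without the replicate 1 arrays of both groups they were 0.47 for TBX6, -0.28 for MEOX1, -0.28 for FOXC1 and 0.24 for FOXC2; the cause was not tested.

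Over leaving out each array, log2 changes ranged from 0.57 to 1.55 for TBXT, -0.67 to 0.46 for TBX6, -0.42 to 0.55 for MEOX1, 0.037 to 0.65 for MEOX2, -0.32 to 1.62 for FOXC1, -1.63 to 0.75 for FOXC2 and -0.74 to -0.056 for MYF5.
Genes of the wider lists that turned sign in it ranged from -0.13 to 0.19 for PTCH1, -0.42 to 0.00043 for COL2A1, -0.83 to 0.71 for SHH, -0.23 to 0.35 for WNT5A, -0.057 to 0.46 for CYP26A1, -1.12 to 0.41 for SNAI2, -0.38 to 0.35 for FGFR1, -0.054 to 0.38 for LHX1, -0.075 to 0.19 for LFNG, -0.29 to 0.15 for DACT2, -0.33 to 0.070 for NOTCH1, -0.17 to 0.091 for AXIN2, -0.68 to 0.54 for PAX7, -0.79 to 0.20 for EYA2, -0.59 to 0.050 for FOXD1, -0.73 to 0.63 for SOX9, -0.20 to 0.0079 for TNNC1, -0.67 to 0.051 for ACTA1, -0.27 to 0.41 for ACTC1, -0.36 to 0.24 for PRRX1 and -0.53 to 0.029 for PAX2.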
